A study of Mus musculus with 23 samples.

Results

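The genes described here build the microvillus, the actin-filled finger of membrane that covers the apical face of the enterocyte. They are Vil1, Espn, Pls1, Myo1a, Ezr, Eps8, Cdhr2, Cdhr5, Ush1c and Myo7b, chosen by name for their known place in the microvillus core, its tip or the links between neighbouring tips. Earlier results of these data were known when the genes were chosen. All 10 were found, under these symbols, among the 22517 named genes of each of the authors' deposited tables, and all 10 were tested by the authors in both comparisons. RNA was sequenced from 3 populations of adult mouse intestinal epithelium on a mixed B6;129 background, with 3 libraries in each. Wild-type villus came from mice with floxed Eed alleles (EedF/F) and no Cre. Eed-null villus came from EedF/F mice with Villin-CRE, in which a promoter of Vil1, itself among the 10 genes, drives the recombinase in gut epithelium. Intestinal stem cells (ISC) were sorted for high GFP from crypts of Eed+/+ mice carrying Lgr5-EGFP-IRES-CREERT2. All mice had received 1 to 2 mg tamoxifen on each of 5 days, and all tissue came from the proximal part of the intestine. Eed belongs to the core of Polycomb repressive complex 2, or PRC2, which places the repressive histone mark H3K27me3.

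A microvillus is a bundle of parallel actin filaments wrapped in plasma membrane, and a dense carpet of them forms the brush border through which nutrients are taken up. Bundling proteins hold the filaments together, a class I myosin and ezrin tie the membrane to the bundle, and tip proteins regulate the growing filament ends. Protocadherins at the tips of neighbouring microvilli bind each other and pull them into a regular array. Inside the cell the protocadherins are held by a scaffold, Ush1c (harmonin), and a motor, Myo7b, in what is called the intermicrovillar adhesion complex. Stem cells at the crypt base carry few and short microvilli, and the array is completed as cells move onto the villus.

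The promoters of 4 of the genes show how much these differ in CG dinucleotides, the feature that marks the promoters at which PRC2 acts most often. Each sequence runs from 250 bases before to 50 bases after the transcription start, 5′ to 3′ on the gene's strand, as given by RefSeq on build GRCm38.p6, with every CG in capitals. Vil1 lies at chr1:74409134-74409433 on the plus strand and drives the most abundant transcript of the set. Cdhr2 lies at chr13:54701213-54701512 on the plus strand, and Ush1c, the scaffold of the same adhesion complex, at chr7:46238441-46238740 on the minus strand. Ezr, with the most CG among the 8 genes of the set that have an entry in the table, lies at chr17:6782731-6783030 on the minus strand.
Vil1: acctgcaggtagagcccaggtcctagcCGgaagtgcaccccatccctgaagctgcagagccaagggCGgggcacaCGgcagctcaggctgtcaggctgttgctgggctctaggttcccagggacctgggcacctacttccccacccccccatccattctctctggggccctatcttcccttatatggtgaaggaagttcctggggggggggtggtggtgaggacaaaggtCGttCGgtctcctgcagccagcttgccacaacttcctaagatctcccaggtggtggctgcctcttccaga
Cdhr2: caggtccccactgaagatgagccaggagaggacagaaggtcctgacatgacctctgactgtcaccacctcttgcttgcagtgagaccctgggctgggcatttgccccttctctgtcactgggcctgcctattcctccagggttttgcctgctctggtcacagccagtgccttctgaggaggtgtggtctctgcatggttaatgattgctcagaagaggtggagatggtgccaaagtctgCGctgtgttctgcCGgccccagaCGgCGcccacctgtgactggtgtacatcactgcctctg
Ush1c: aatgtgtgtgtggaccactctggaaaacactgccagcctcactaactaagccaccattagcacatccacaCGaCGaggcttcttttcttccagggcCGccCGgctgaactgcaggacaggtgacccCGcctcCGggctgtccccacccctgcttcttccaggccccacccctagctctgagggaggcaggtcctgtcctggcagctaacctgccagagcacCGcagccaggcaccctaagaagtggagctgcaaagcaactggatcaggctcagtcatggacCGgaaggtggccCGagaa
Ezr: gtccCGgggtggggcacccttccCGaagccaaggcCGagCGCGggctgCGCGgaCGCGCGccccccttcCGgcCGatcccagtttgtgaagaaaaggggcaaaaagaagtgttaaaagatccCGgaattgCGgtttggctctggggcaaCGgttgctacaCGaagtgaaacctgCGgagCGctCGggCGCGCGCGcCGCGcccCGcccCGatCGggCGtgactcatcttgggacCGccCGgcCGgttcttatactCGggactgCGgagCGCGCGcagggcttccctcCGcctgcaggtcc

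Ezr stood apart with 38 CG in 300 bases, more than in 95% of the 32851 promoters of the RefSeq table. The other printed promoters held 5 CG (Vil1), 4 CG (Cdhr2) and 9 CG (Ush1c), against a median of 7 over all promoters of the table. Entries were found for 8 of the 10 genes, with 3 alternative starts for Espn. Of those not printed, Cdhr5 held 7 CG, Myo1a 2, Pls1 16, and the Espn starts 15, 2 and 5. Median GC content was 60.7% over these 10 promoters and 52.7% over the table. Short motifs of intestinal transcription factors were also searched in these windows, on both strands except for the TATA box. A CArG box, the type of element bound by serum response factor, occurred in Vil1 alone, from 73 to 64 bases before the start, and in 1.63% of all promoters. GTTAAT (HNF1) occurred in Cdhr2 alone, from 54 to 49 bases before the start, and in 7.10% of all promoters. TTTATNG (CDX) and CCACACCC (KLF) were each found in 1 Espn start, and in 10.9% and 3.56% of all promoters. The HNF4 motif CAAAGTNCA was in none of the 10 windows and in 1.41% of all promoters. Of the same kind were AGATAA, the motif of the family of factors named after it, in 11.2% of all promoters, and the TATA box, searched as TATAAA on the gene's strand, in 8.32%. Letters can be shared between motifs, since a CArG box or the reverse strand of the CDX motif may hold TATAAA, and a match describes these letters and not a bound site.

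The labels were checked on Eed and on marker genes. The level of Eed was 3.00 RPKM in the knockout villus against 9.17 RPKM in its control, 3.05-fold lower (q = 6.29e-06 in the authors' deposited table). RPKM counts reads relative to the length of the gene and the size of the library, so that levels of different genes can be compared. Summed over 14 enterocyte markers, ISC had 921 RPKM and wild-type villus 44003 RPKM. Summed over 12 stem cell markers, ISC had 3574 RPKM and wild-type villus 170 RPKM. Markers of other cells also differed in this comparison, and their part in the values of the 10 genes was not tested. All 4 tested Paneth cell markers were called lower in villus, from 1.89-fold (Ang4) to 5.71-fold (Mmp7) higher in ISC. Lyz1 and Defa24 are listed at 0 in ISC with a status that marks them as too deep to test, so those are not measured zeros. Summed over 8 goblet cell markers, ISC had 2714 RPKM and villus 12337 RPKM, of which 3 markers were called higher and 2 lower in villus. Enteroendocrine markers summed to 294 RPKM in ISC and 523 RPKM in villus, with 4 of 9 called higher and 4 lower in villus. Tuft cell markers summed to 11.6 and 53.0 RPKM, with 8 of 9 called higher in villus, and 14 leukocyte markers to 25.2 and 126 RPKM. Of all 13007 genes tested in this comparison, 30.5% were called higher in villus and 32.3% lower. Mesenchyme, endothelium and nerve or glia lists summed to at most 7.80 RPKM in ISC and 1.89 RPKM in wild-type villus. Each table gives 1 value per group, so neither the spread between libraries nor their depth can be stated, and error enters through the authors' q alone. Genes are called where they were tested and had q at or below 0.05. Wild-type villus is in both tables, which were normalized separately, and over genes above 1 RPKM its values are 1.16193 times higher in the first. Where a common scale is named below, Eed-null values were multiplied by that factor, as a description without a test.

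All 10 genes were higher in wild-type villus than in ISC, from 3.14-fold for Ush1c to 54.8-fold for Espn, with a median log2 ratio of 3.32. Villin itself differed 9.91-fold and ezrin 10.1-fold, so both sat at the middle of the set. The tip-link cadherins Cdhr2 and Cdhr5 differed 20.1-fold and 15.6-fold, while their intracellular partners Ush1c and Myo7b differed only 3.14-fold and 3.27-fold. Summed over the 10 genes, the level was 453 RPKM in ISC and 4463 RPKM in villus, a ratio of 9.85. From highest to lowest RPKM the order in ISC was Vil1, Myo1a, Ezr, Ush1c, Myo7b, Cdhr5, Cdhr2, Pls1, Eps8 and Espn. In wild-type villus it was Vil1, Cdhr2, Cdhr5, Myo1a, Ezr, Pls1, Espn, Ush1c, Myo7b and Eps8, and in Eed-null villus Cdhr5 stood before Cdhr2 and Ezr before Myo1a. Whether neighbours in these orders differ cannot be stated without values per library.

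Every one of the 10 was called higher in villus, against 30.5% of the 13007 genes tested, and 62.8% called in either direction (32.3% lower). Among the 1309 tested genes with at least 70 RPKM in wild-type villus, about as abundant as the lowest of the set, 73.5% were called higher. Those genes were picked by their villus level, the numerator of the ratio, which favours higher ratios among them. Against the set's median of 3.32, the median log2 ratio was -0.10 over all tested genes and 1.38 over those abundant genes. In the authors' deposited table q is 0 for 8 of the genes, 2.96e-11 for Ush1c and 1.46e-10 for Myo7b. Villus epithelium went into TRIzol after EDTA alone, ISC were also dissociated with enzyme and sorted, and the groups carry different Eed and Cre alleles, so cell type, handling and genotype cannot be told apart. In such bulk samples, fewer cells that make a transcript and less transcript per cell cannot be told apart either.

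**Figure D1:**
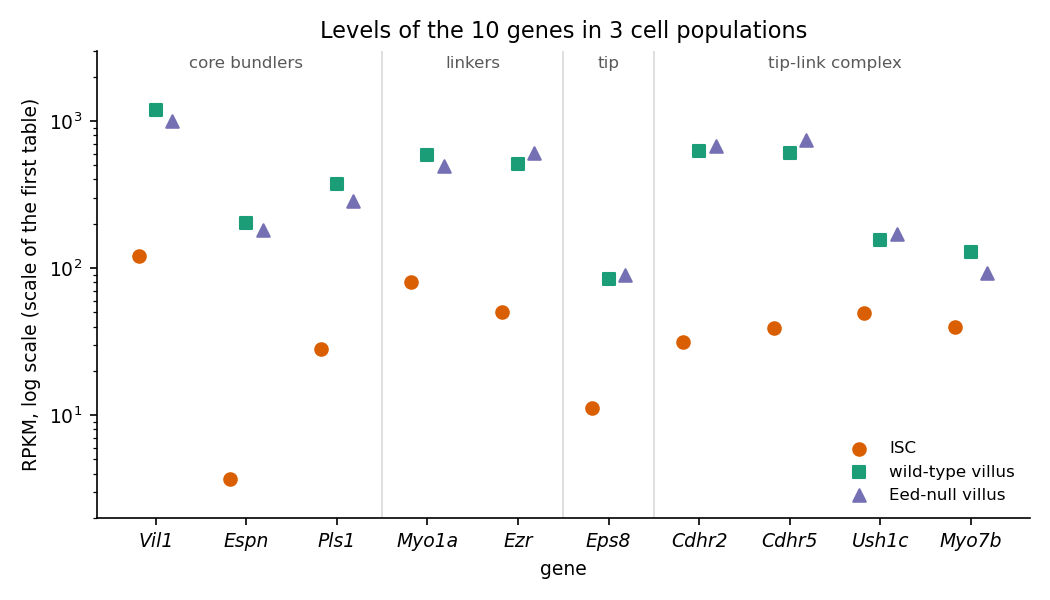
Level of each gene in RPKM (y axis, log scale) in ISC (circles), wild-type villus (squares) and Eed-null villus (triangles), with Eed-null values brought to the scale of the first table by the factor 1.16193. Each point is the authors' single value per group, without error bars; ISC lies below both villus groups for each of the 10 genes, by the widest distance for Espn and the narrowest for Ush1c and Myo7b.

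Among the bundlers of the actin core, espin differed most. Espn, which cross-links actin filaments and lengthens the bundle, had 3.66 RPKM in ISC, 201 RPKM in wild-type villus and, on the same scale, 180 RPKM in Eed-null villus. In ISC it was higher than 61.4% of all listed genes, the lowest standing of the set, and in wild-type villus it was higher than 97.8%. Pls1, the intestinal fimbrin, had 28.2 RPKM in ISC, 373 RPKM in wild-type villus and 286 RPKM in Eed-null villus on that scale. Vil1, which bundles actin and severs it when calcium rises, had 120, 1191 and 992 RPKM in the same order, the highest level of the set in each population. Relative to villin, espin stood at 0.0305 per unit of Vil1 RPKM in ISC and at 0.168 in wild-type villus, whereas fimbrin stood at 0.235 and 0.313. These ratios compare levels per length of gene within a population.

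Like the other classes of the set, the linkers between core and membrane had measurable RNA in the ISC samples. Myo1a, the motor that ties the membrane to the sides of the bundle, had 80.8 RPKM in ISC against 587 RPKM in control villus (7.26-fold) and 497 RPKM in Eed-null villus on the common scale. It ranked behind Vil1 alone in ISC, and in wild-type villus behind Vil1, Cdhr2 and Cdhr5. Ezr, the membrane-to-actin linker that is switched on by phosphorylation, had 50.3 RPKM in ISC, 508 RPKM in wild-type and 604 RPKM in Eed-null villus. Ezrin per unit of Vil1 RPKM was 0.419 in ISC and 0.427 in wild-type villus, so the 2 genes differed by nearly the same factor. Eps8, which caps and bundles actin at the tip, was the least abundant of the set in both villus groups, at 84.3 RPKM in wild-type and 89.6 RPKM in Eed-null villus against 11.1 RPKM in ISC.

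Transcripts of the adhesion complex stood in different proportions in ISC and villus. Cdhr2 and Cdhr5, the protocadherins that bind each other across the gap between tips, had 31.3 and 39.0 RPKM in ISC and 629 and 606 RPKM in wild-type villus. Ush1c, the scaffold that holds their tails, had 49.3 RPKM in ISC and 155 RPKM in wild-type villus. Myo7b, the motor that carries the complex to the tip, had 39.4 and 129 RPKM. In ISC the scaffold was thus the more abundant transcript, with 0.636 units of Cdhr2 RPKM per unit of Ush1c, and in wild-type villus the ratio was 4.06. Both cadherins together made up 15.5% of the set's summed RPKM in ISC and 27.7% in wild-type villus, while Ush1c and Myo7b together made up 19.6% and 6.36%. The cadherins kept close to each other, at 0.804 units of Cdhr2 per unit of Cdhr5 in ISC and 1.04 in wild-type villus, and Ush1c kept close to Myo7b, at 1.25 and 1.20. Whether these folds differ beyond error was not tested, because the tables hold no values per library.

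**Figure D2:**
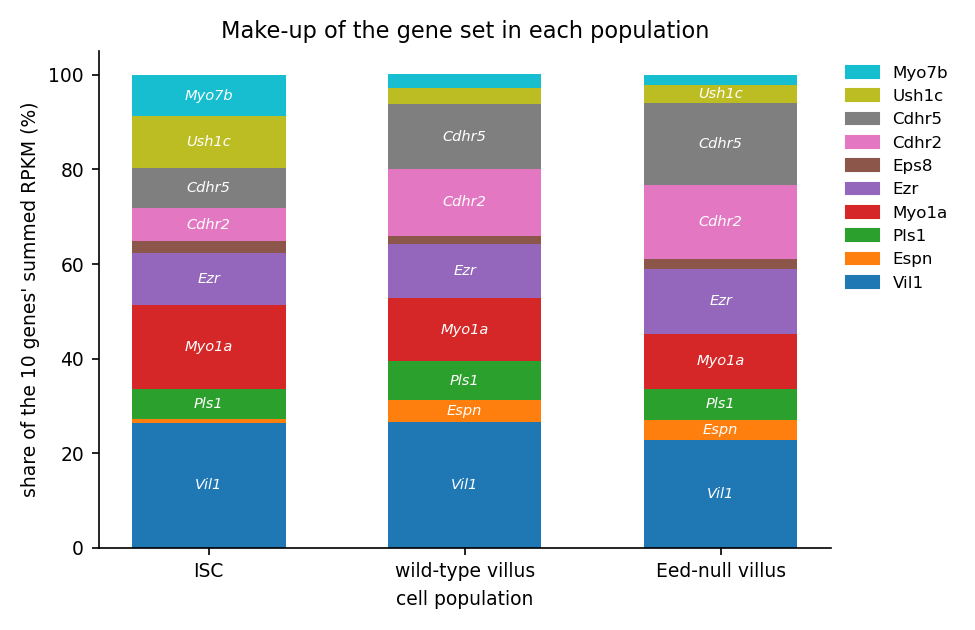
Share of each gene in the summed RPKM of the 10 genes (y axis, percent), stacked, in ISC, wild-type villus and Eed-null villus. Cdhr2 and Cdhr5 take up 15.5% of the ISC bar and 27.7% of the wild-type villus bar, Ush1c and Myo7b shrink from 19.6% to 6.36%, and Vil1 holds 26.5% and 26.7%.

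The other known partners of the adhesion complex followed different members. Anks4b, an ankyrin-repeat protein that binds Ush1c and Myo7b, went from 12.9 RPKM in ISC to 138 RPKM in villus, a 10.7-fold difference. Calml4, a light chain of Myo7b, had 172 and 675 RPKM, a 3.93-fold difference close to that of the motor, although it shares its locus entry with another gene. Both were called higher in villus, with q of 0 and 3.77e-11 in the authors' deposited table. Of 10 listed genes of the related complex that links the stereocilia of hair cells, those too low to be tested included Ush1g, Cdh23, Pcdh15, Gpr98, Clrn1 and Espnl. Cdh23 and Pcdh15, the cadherins of hair-cell tip links, stood at 0.0217 and 0.00600 RPKM in villus, next to 629 RPKM for Cdhr2. Of the 3 that were tested, Whrn, a scaffold of stereocilia, was lower in villus, at 1.15 RPKM against 5.77 RPKM in ISC (q = 7.07e-07 in the authors' deposited table). Cib2, a calcium-binding partner of hair-cell proteins, was not called, at 2.86 against 5.08 RPKM (q = 0.138 in the authors' deposited table).

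The set stood, in ISC, at a larger part of its villus level than enterocyte markers did, by a difference that was not tested. The ISC value was 1.83% of the villus value for Espn, 4.99% for Cdhr2, 6.43% for Cdhr5 and 7.56% for Pls1. It was 9.90% for Ezr, 10.1% for Vil1, 13.1% for Eps8 and 13.8% for Myo1a, and reached 30.6% for Myo7b and 31.8% for Ush1c. The median was 9.99% for the 10 genes and 1.36% for the 14 enterocyte markers, whose highest value was 8.43% (Mgam, a brush-border maltase). For 6 of the 10 genes the share was above that of any of these markers, and for Espn, Cdhr2, Cdhr5 and Pls1 it lay within their range. How far enterocyte RNA in the sorted cells contributes to the ISC values of the 10 genes was not tested.

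**Figure D3:**
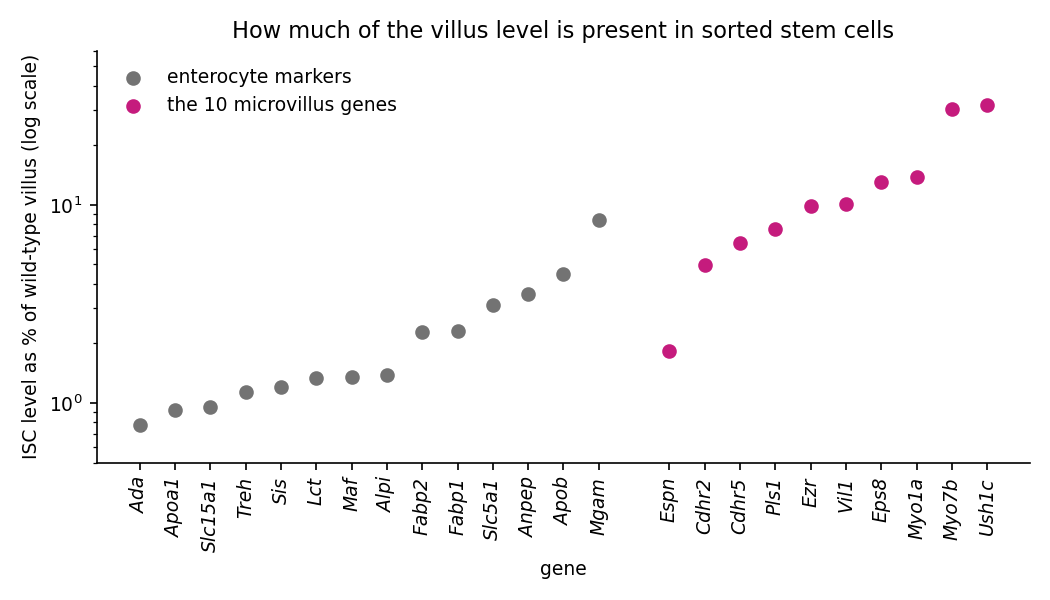
ISC level as a percent of the wild-type villus level (y axis, log scale) for 14 enterocyte markers (grey) and the 10 microvillus genes (pink), each point 1 gene. Espn at 1.83% falls among the markers, while Myo7b and Ush1c lie above 30%, at 30.6% and 31.8%.

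Among relatives of the 10 genes some were higher in ISC and others in villus. Fimbrin was joined in ISC by its relatives Lcp1, the plastin of blood cells, at 15.5 RPKM, and Pls3 at 8.61 RPKM, so that Pls1 made up 53.9% of plastin RPKM there. In villus Lcp1 had 3.83 RPKM and Pls3 0.642 RPKM, and Pls1 made up 98.8%. Lcp1 was 4.05-fold and Pls3 13.4-fold higher in ISC, with q of 3.38e-14 and 0 in the authors' deposited table. The leukocyte markers given above summed to 25.2 RPKM in ISC and 126 RPKM in villus, and their part in the Lcp1 values was not tested. Myo1a made up 54.6% of class I myosin RPKM in ISC and 85.1% in villus. Its relative Myo1d had 35.4 RPKM in ISC and 68.4 RPKM in wild-type villus (q = 1.51e-04 in the authors' deposited table).

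Ezrin was nearly the sole member of its family in every population. Msn and Rdx, moesin and radixin, had 0.204 and 0.140 RPKM in ISC and 0.794 and 0.371 RPKM in villus, leaving Ezr with 99.3% and 99.8% of the family's RPKM. Eps8 was instead a minor member beside Eps8l3 and Eps8l2, with 9.38% of family RPKM in ISC and 12.9% in villus. Eps8l3 went from 79.6 RPKM in ISC to 394 RPKM in villus and Eps8l2 from 26.7 to 175 RPKM, and both were called higher in villus. Their locus entries, like that of Eps8l1, also hold other genes. Actg1 and Actb, the cytoplasmic actins that form the core, had 942 and 474 RPKM in ISC and 771 and 1165 RPKM in villus. Actb was called higher in villus (q = 1.90e-04) and Actg1 was not called (q = 0.522) in the authors' deposited table.

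**Figure D4:**
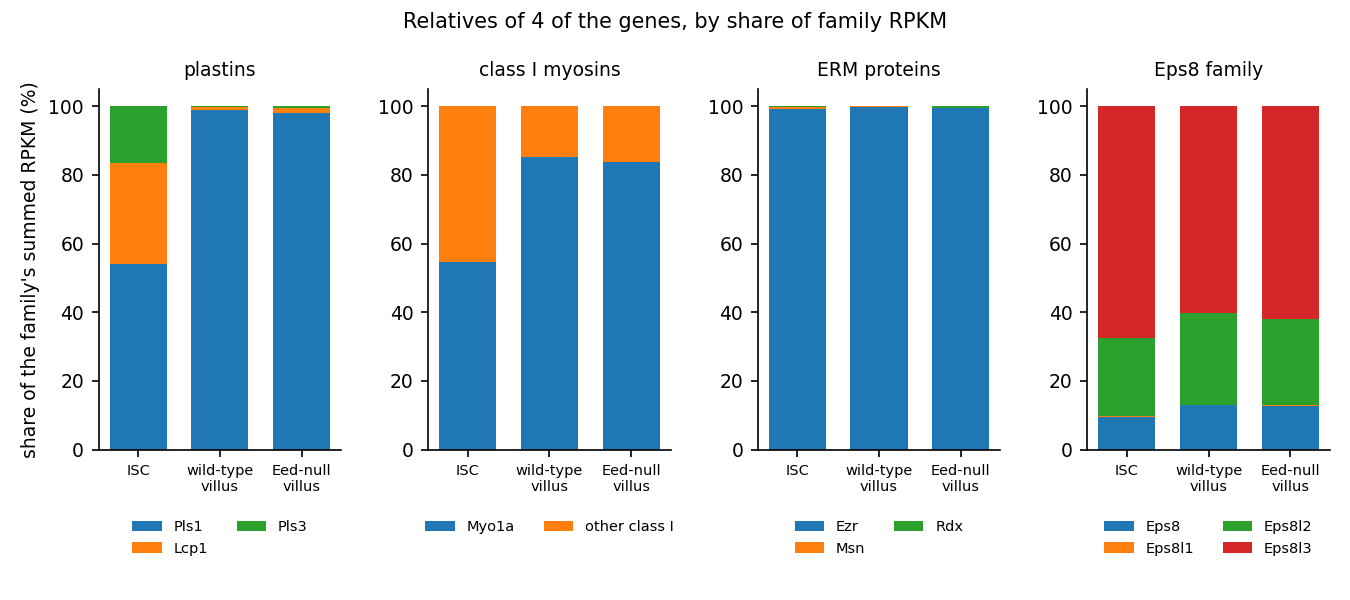
Share of each relative in its family's summed RPKM (y axis, percent) for plastins, class I myosins (Myo1a against all others), ERM proteins and the Eps8 family in ISC, wild-type villus and Eed-null villus. Pls1 holds 53.9% of plastin RPKM in ISC and 98.8% in wild-type villus, and Myo1a 54.6% and 85.1%, while Ezr holds over 99% throughout, at 99.3%, 99.8% and 99.4%.

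In Eed-null villus none of the 10 genes was called. Without a call, 5 of them had ratios of Eed-null to control above 1, up to 1.23 for Cdhr5, and 5 had ratios below 1, down to 0.715 for Myo7b. The level summed over the set was 3729 RPKM against 3841 RPKM in the control, a ratio of 0.971, on the scale of the second table. Of the 12525 genes tested in this comparison 11.4% were called, 7.90% as higher in the knockout and 3.46% as lower. Eed-null and control villus differ in Villin-CRE as well as in Eed, and the part of each was not tested.

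Lower values, none of them called, were found for Vil1, Espn, Pls1, Myo1a and Myo7b, and higher ones, likewise not called, for Ezr, Eps8, Cdhr2, Cdhr5 and Ush1c. Vil1 had 854 RPKM in Eed-null villus against 1025 RPKM in the control (q = 0.780 in the authors' deposited table), Espn 155 and 173 RPKM (q = 0.817) and Pls1 246 and 321 RPKM (q = 0.493). Myo1a had 428 and 505 RPKM (q = 0.759 in the authors' deposited table). Myo7b, at 79.4 against 111 RPKM, came nearest to a call, with an unadjusted p of 0.0593 and q = 0.266 in the authors' deposited table. Cdhr2 had 584 against 541 RPKM (q = 0.927 in the authors' deposited table), and its binding partner Cdhr5 641 against 522 RPKM (q = 0.731). Ezr had 520 and 437 RPKM (q = 0.739), Eps8 77.1 and 72.5 RPKM (q = 0.917) and Ush1c 146 and 133 RPKM (q = 0.868) in the authors' deposited table. None of the 10 had an unadjusted p below 0.05.

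No gene of like abundance was called for a difference as small as these. Among 1168 tested genes with at least 70 RPKM in wild-type villus, the smallest difference called was 1.56-fold, and 9.93% were called, 31 of them higher and 85 lower. The largest difference among the 10 genes was 1.40-fold, and of the 932 abundant genes at or below that size none was called. The median log2 ratio of Eed-null over wild-type villus was -0.04 for the 10 genes, -0.08 for all tested genes and -0.09 for the abundant ones. The genes' ratios lay between percentiles 14.6 (Myo7b) and 77.4 (Cdhr5) of all tested genes, so they spread across the middle of the distribution. Below 1.56-fold no difference was called among abundant genes, and the lack of a call does not show that levels of the 10 genes were equal.

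**Figure D5:**
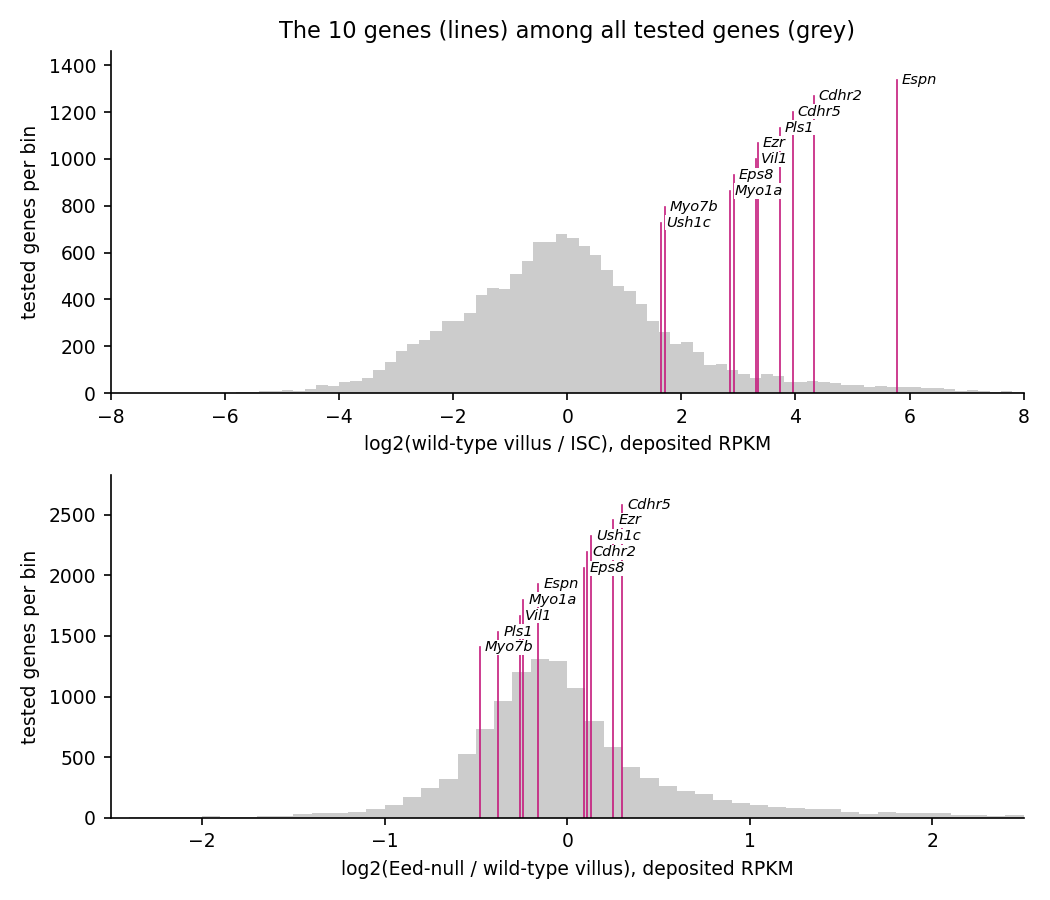
Distribution of log2 ratios over all tested genes (grey, genes per bin) with the 10 genes as labelled lines, for wild-type villus over ISC (top) and Eed-null over wild-type villus (bottom); genes beyond the axis limits are not drawn, and line heights only separate the labels. In the top panel all 10 genes lie to the right, between 1.65 and 5.78, and in the bottom panel they lie between -0.48 and 0.30, inside the bulk of all genes.

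Within the set, some ratios of levels in Eed-null villus lay near those of wild-type villus and others did not, and none of these differences was tested. Cdhr2 per unit of Ush1c RPKM was 4.01 in Eed-null, 4.06 in wild-type villus and 0.636 in ISC. Espn per unit of Vil1 was 0.181, 0.168 and 0.0305 in the same order, and Pls1 made up 98.1% of plastin RPKM in Eed-null villus. The ratio of Ush1c to Myo7b was instead 1.83 in Eed-null villus, 1.20 in wild-type villus and 1.25 in ISC. Ezr per unit of Vil1 was 0.608, 0.427 and 0.419 in that order, and Eps8 per unit of Vil1 was 0.0903, 0.0707 and 0.0920. Cdhr2 per unit of Myo7b was 7.35, 4.87 and 0.795. On the common scale the 10 genes stood 2.34-fold (Myo7b) to 49.1-fold (Espn) above ISC in Eed-null villus, with no test, since the tables were normalized separately and share the wild-type libraries.

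Other genes of the brush border were described from lists of its parts. Of 112 symbols in the lists, 107 are in the tables and 91 were tested in each comparison. Between villus and ISC 46 were called higher and 17 lower in villus, where 30.5% and 32.3% of all tested genes were called, with a median log2 ratio of 0.53 against -0.10 for all tested genes. The lists were not matched to other genes for level, and of tested genes with at least 70 RPKM in wild-type villus 73.5% were called higher. Partners of ezrin were among the called list genes: Pdzk1, a scaffold for membrane carriers, had 251 RPKM in villus against 4.00 RPKM in ISC. Slc9a3r1, the scaffold that ties ezrin to such carriers, had 870 and 42.8 RPKM. Stk10, a kinase that phosphorylates ezrin, had 16.2 against 0.401 RPKM, a 40.4-fold difference. Prom1, which encodes a pentaspan protein of membrane protrusions, was lower in villus, at 55.5 RPKM in ISC and 8.16 RPKM in villus. All 4 have q of 0 in the authors' deposited table, and the locus entry of Pdzk1 holds a further gene.

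Among 12 tip and actin-assembly genes, 8 were called higher and 3 lower in villus, to be read against the same 30.5% and 32.3% of all tested genes, as are the counts that follow. Cobl, an actin nucleator of the microvillus base, had 59.6 against 6.69 RPKM, and Clrn3 147 against 14.5 RPKM. Baiap2, a membrane-bending adaptor, was lower in villus at 0.849 against 4.83 RPKM (q = 4.43e-08 in the authors' deposited table). Of 14 tested unconventional myosins outside the set, 6 were called higher and 3 lower, and of 18 terminal web genes 9 and 3. Myh14, a nonmuscle myosin of the terminal web, had 139 against 34.3 RPKM. Of 11 apical trafficking genes 7 were called higher and 0 lower, with Stx3, the apical membrane fusion protein, at 42.5 against 9.42 RPKM and Rab8a at 129 against 39.1 RPKM. Among 16 intestinal transcription factors 7 were called higher and 2 lower, with Hnf4g at 178 against 19.3 RPKM and its relative Hnf4a not called, at 204 against 187 RPKM (q = 0.737 in the authors' deposited table).

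Against control villus, 6 of the 91 tested list genes were called higher in Eed-null villus and 4 lower. Of all tested genes 7.90% and 3.46% were called. These counts are near that background. The list genes had a median log2 ratio of 0.06 against -0.08 for all tested genes. All 6 called higher were scarce in wild-type villus, at 0.0858 to 2.46 RPKM. Over all genes, calls of higher were also more frequent at such levels. Of the 3842 tested genes below 2.5 RPKM in wild-type villus 17.3% were called higher, and of the 8683 others 3.75%. Among list genes below that level, 6 of 17 were called higher (35.3%). That limit was not planned and lies just above the highest of the 6, at 2.46 RPKM. Its place puts all 6 below it and favours a high share, so 35.3% cannot be read against 17.3%. These 6 included relatives of the abundant microvillus genes. Rdx (radixin), whose locus entry holds a further gene, had 2.43 RPKM in Eed-null villus against 0.319 RPKM in the control (q = 2.67e-06 in the authors' deposited table), and Vill, a relative of Vil1, 1.13 against 0.262 RPKM (q = 0.0367). Myh10, a nonmuscle myosin, had 1.45 against 0.0858 RPKM, and Myo5a, an organelle motor, 1.22 against 0.119 RPKM, with q of 0 in the authors' deposited table. Baiap2 and Cib2 were the others, at 2.15 against 0.731 RPKM and 9.17 against 2.46 RPKM. Myh10, Myo5a, Vill and Rdx stood below 0.351 RPKM in wild-type villus, where a gene was tested only if its Eed-null value was higher than that. None of the 6 exceeded 9.17 RPKM in Eed-null villus, where Ezr had 520 RPKM and Vil1 854 RPKM.

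Of the 4 list genes called lower, 2 stand close to the set. Myo7a, the class VII myosin of hair cells, had 2.60 RPKM in Eed-null villus against 7.35 RPKM in the control (q = 9.13e-08 in the authors' deposited table), and its relative Myo7b made up 96.8% of their joint RPKM in Eed-null villus. Pdzk1 had 129 against 216 RPKM (q = 0.0382 in the authors' deposited table). Cdx2 and Ppara, transcription factors of intestinal identity and of lipid metabolism, had 31.1 against 61.0 RPKM and 8.37 against 17.1 RPKM (q = 4.87e-04 and 0.00386 in the authors' deposited table). Enterocyte markers were called lower in 2 cases (Lct and Treh) and higher in 1 (Ada) of 14, and their sum was 29283 RPKM against 37871 RPKM in the control. Goblet cell markers summed to 14201 and 10618 RPKM in the same order, with 3 of 8 called higher and 0 lower. Paneth cell markers summed to 8304 and 6994 RPKM, with 2 of 6 called higher and 0 lower. Enteroendocrine markers summed to 698 and 450 RPKM, with 1 of 9 called higher (Gip) and 1 lower (Gcg). Leukocyte markers summed to 70.7 and 109 RPKM, with 0 of 11 tested called higher and 1 lower. Over all tested genes 7.90% were called higher and 3.46% lower. The part of such differences in cell make-up in the values of the 10 genes was not tested.

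Among the 5 genes with the pattern nearest to the median of the set were Acot9, Dgkq, Parp14 and Ank3. Nearness was the distance between pairs of log2 ratios, villus over ISC and Eed-null over wild-type villus, across 3 populations and 5058 genes tested in both tables with at least 10 RPKM in wild-type villus. These 4 lay at distances of 0.054 (Acot9) to 0.085 (Ank3) from the set's median pair of 3.32 and -0.04, with 20.5 to 40.3 RPKM in wild-type villus on the scale of the second table. Anks4b, the partner of Ush1c named above, was the next gene in that order, at a distance of 0.097. Both ratios use the wild-type villus libraries, so they are not independent of each other.

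On build mm9, as the files give it, the loci run as follows, with a start convention that is not stated. Espn lies from 151494984 to 151526316 on chromosome 4, Pls1 from 95653060 to 95745698 on chromosome 9 and Myo1a from 127142311 to 127157996 on chromosome 10. Ezr lies from 6942479 to 6987129 on chromosome 17, Eps8 from 137425765 to 137597641 on chromosome 6 and Cdhr2 from 54802823 to 54838023 on chromosome 13. Cdhr5 and Ush1c are both on chromosome 7, from 148454983 to 148462685 and from 53450720 to 53493860, and Myo7b is on chromosome 18, from 32118887 to 32196585. Each of these 9 entries belongs to a single gene. Vil1 shares its entry, from 74455957 to 74634602 on chromosome 1, with Plcd4, Rqcd1, Usp37 and Zfp142, which had at most 20.2 RPKM in ISC and 14.9 RPKM in wild-type villus, far below Vil1 at 120 and 1191 RPKM.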

How the data were processed

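RNA of 9 libraries was sequenced as 75 bp single-end reads, per the labels' protocols, and 14 chromatin libraries were not used here. For each gene and group the authors deposited 1 RPKM value, as headers of the first table state. The second table names no unit, and RPKM was inferred because its wild-type villus values equal those of the first divided by 1.16193 (range 1.16192 to 1.16194, 10353 genes). TopHat2 2.0.6, Bowtie, Cufflinks 2.0.1, Cuffdiff and build mm9 are listed, without roles, in the submitters' processing notes, which name no annotation. Each p-value and q-value is the authors' own, and q equals a Benjamini-Hochberg adjustment over tested genes to within 8.02e-05.

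The q-values rest on libraries that the labels call biological replicates, and how the authors' test modelled error is not known here. Library values are needed for a model, so none was fitted. The design planned the authors' q for this case. Folds are ratios of deposited RPKM with no pseudocount (Python 3.11.15, pandas 2.3.3). The entry naming no gene was left out. Listed fold changes were not used. The adjustment used for alternatives was tested on simulated data. The 10 genes and all lists were chosen with earlier results of these data known, and support nothing on their own. From each list up to 4 called genes per comparison with the largest log2 ratio could be named, with the 5 genes of nearest pattern, except some that are not reported here; Myo1d, Msn, Eps8l1, Eps8l3, the actins, Hnf4a, the marker genes, the untested hair-cell genes and the neighbours of Vil1 were named after their values were seen. Pattern neighbours needed at least 10 RPKM. Promoters are from RefSeq, build GRCm38.p6, and were not joined to mm9 coordinates. Alternatives were stricter q, a minimum fold, a minimum level, unshared loci, pseudocounts, centring and another adjustment.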

Additional observations from a re-analysis of the deposited data

How the results depend on the processing

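All 10 genes were also called higher in villus than in ISC with q at or below 0.01, a 2-fold minimum, 1 RPKM in both groups, or p adjusted over genes at 1 RPKM or more. In Eed-null villus 0 were called under that adjustment, the other settings being unable to add a call. Leaving out genes that share a locus entry removed Vil1 and left 9 of 9 called higher in villus. Pseudocounts of 1 or 0.1 and centring act on the log2 ratios alone, and changed the sign of none of the 10 in either comparison. With 1 RPKM required in both groups, or p adjusted over such genes, 11 in place of 17 list genes were called lower in villus than in ISC and 1 in place of 6 called higher in Eed-null villus, since fewer genes were tested. With a 2-fold minimum, 2 in place of 4 were called lower in Eed-null villus, and 3 with q at or below 0.01 or with p adjusted over such genes. Pdzk1, 1.68-fold lower with q = 0.0382 in the authors' deposited table, meets neither the 2-fold minimum nor q at or below 0.01. Between villus and ISC, 41 in place of 46 list genes were called higher and 13 in place of 17 lower with q at or below 0.01. With a 2-fold minimum these counts were 37 and 14. For the 10 genes the median log2 ratio of Eed-null villus over ISC, 3.19, became 3.17 with a pseudocount of 1 and 3.26 when centred. No paired analysis was possible because the tables hold no values per library, and for the same reason no replicate could be left out.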
